A study of Mus musculus with 17 samples.

Results

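Microglia that lacked Trem2 and came from the brains of 5xFAD mice (3 libraries) were compared with microglia of normal mice, which carried neither change (3 libraries). Every gene with a normalized read count of 10 or more in at least 3 of these 6 libraries was included, which gave 11296 of the 13501 gene symbols measured in 17 libraries of 5 groups. The comparison addresses how much of the response to amyloid is left without Trem2. Cells of all groups were living (DAPI-negative) CD45+CD11b+ cells of the brain, sorted straight into TRIzol LS, and their RNA was amplified with a SMART-Seq v4 kit for very small inputs and sequenced on a NovaSeq. The knockout group is labelled Trem2-knockout with 5XFAD, the normal group wildtype without 5xFAD, and neither received any treatment. Another group, microglia of 5xFAD mice with wild-type Trem2 (3 libraries, untreated), is used for reference, and both 5xFAD groups share the transgenes while differing in Trem2. Since the knockout group differs from the normal group in the transgenes and in Trem2 together, these causes cannot be told apart in that contrast, and a group with Trem2 loss alone was not analysed here. The labels give no age or sex and do not say whether a library came from 1 animal.

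5xFAD mice carry human transgenes with familial Alzheimer's disease mutations, APP among them, driven by the Thy1 promoter, which is active mainly in neurons, and build up amyloid plaques in the brain. Trem2 is a surface receptor of microglia for lipids, apolipoproteins and amyloid, and it signals through the adaptor Tyrobp (DAP12) and the kinase Syk. Around plaques, microglia are known to take on a disease-associated state (DAM) in steps: an early stage held to be independent of Trem2, with higher Apoe, Tyrobp, B2m and cathepsins and lower homeostatic genes, and a later stage that needs Trem2, with higher Cst7, Itgax, Axl, Lpl, Clec7a, Csf1 and genes of lipid handling.

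Libraries are named by the sample number in their column. Each set of 3 values is given in the order S20, S21 and S36 for normal, S25, S26 and S27 for knockout 5xFAD, and S22, S23 and S24 for wild-type 5xFAD. The 6 libraries compared held 16044078 to 19289807 reads. The knockout libraries did not lie together. S25 and S27 differed by over 2-fold from the normal mean in 21.2% and 19.9% of the tested genes, whereas S26 did so in 6.24%, next to 5.28% to 5.96% for the normal libraries and 8.79% to 10.1% for the wild-type 5xFAD libraries. In a chi-square comparison of reads, S25 and S27 differed by 9.62 per degree of freedom and both differed from S26 by about 130 (129.6 and 129.8), while pairs of normal libraries differed by 13.1 to 22.9. S25 and S27 were thus closer together than any 2 normal libraries. Whether libraries came from separate animals is not given, so p-values measure only the spread between these libraries, which may be technical. With S25 and S27 averaged to 1 library, 45 genes were called higher and 2 lower. Mitochondrially encoded RNA made up 0.257% and 0.246% of reads in S25 and S27, 0.0708% in S26 and 0.0579% to 0.0826% in normal libraries, and 0.141%, 0.12% and 0.134% in the wild-type 5xFAD libraries. Reads of Lars2, which encodes the mitochondrial leucyl-tRNA synthetase, made up 1.69% and 2.09% in S25 and S27, 0.824% in S26 and 0.405% to 0.706% in normal libraries. Genes with a low GC content also stood higher in S25 and S27: the fifth of genes with the lowest transcript GC content had a median difference from normal of 0.60, -0.05 and 0.53 in S25, S26 and S27, and the fifth with the highest GC content -0.39, 0.06 and -0.32 (log2 scale). The part of these differences in the results below was not tested, so each result is given by library.

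Trem2 (chromosome 17, 48346401 to 48354147, GRCm38) was low in all 3 knockout libraries, S26 among them. Its normalized read count was 32384, 37459 and 31205 in the normal libraries, 5516, 4367 and 5965 in the knockout libraries and 51400.2, 53077 and 49346 in wild-type 5xFAD. All knockout libraries lay far below all others in the 3 groups, and S26 was the lowest. The log2 difference between knockout and normal was -2.68 ± 0.16 (adjusted p = 3.54e-08), where differences are taken on log2(value + 1), errors are standard errors of the limma fit and p-values are adjusted by Benjamini-Hochberg over the 11296 genes. Reads left in a knockout can come from parts of the gene outside the deletion, and the labels do not say which part was deleted.

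Of the 11296 genes, 322 (2.85%) were higher and 156 (1.38%) lower in knockout 5xFAD than in normal microglia at an adjusted p under 0.05, and the median over all genes was 0.01. For comparison, the wild-type 5xFAD group had 312 genes higher (2.76%) and 112 lower (0.992%) than normal, and the knockout had 296 higher (2.62%) and 309 lower (2.74%) than wild-type 5xFAD. The 3 knockout libraries lay above all 3 normal ones in 1298 genes (11.5%) and below them in 1009 (8.93%). The spread came from all 17 libraries. With the 9 libraries of the 3 groups named here 88 genes were called higher and 2 lower, and with the 6 libraries compared 8 and 1. Upper-quartile rescaling changed the balance to 351 higher and 65 lower. The calls rested on S25 and S27. Among the 322 genes called higher, the median difference from normal was 1.99 in S25 and 1.95 in S27 against 0.85 in S26, and all 3 knockout libraries were above every normal library in 299 of them. Among the 156 called lower it was -0.94, -0.93 and -0.25, and all 3 knockout libraries lay below every normal library in 130. Without S26, 2122 genes (18.8%) were called higher and 2408 (21.3%) lower. With S26 as the only knockout library, whose spread is then taken from the other groups, Cst7 was the 1 gene called higher (0.00885%) and Trem2 the 1 called lower (0.00885%). After removal of the trend with GC content, an alternative added after the trend was seen, 512 (4.53%) were higher and 370 (3.28%) lower.

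**Figure D1:**
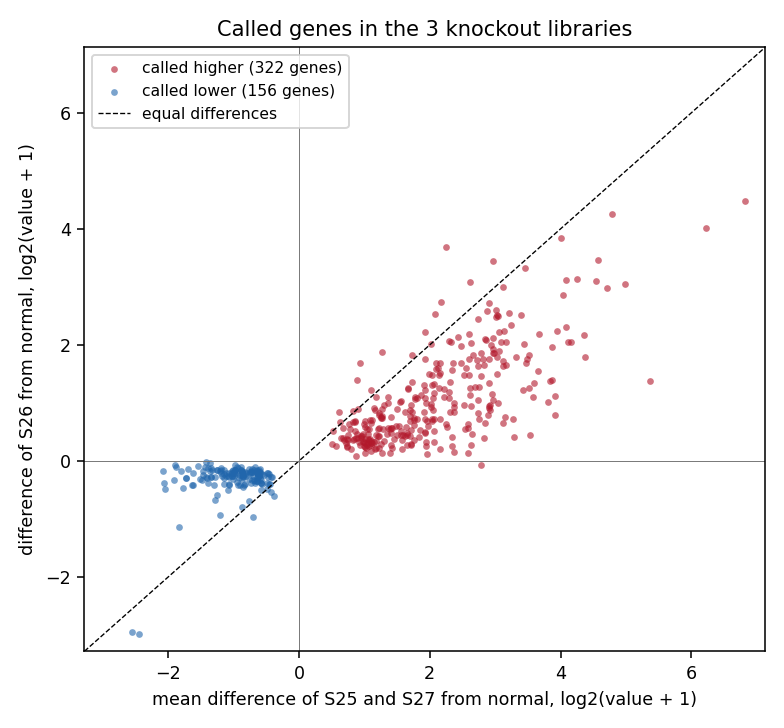
Difference from the normal mean of the 322 genes called higher (red) and the 156 called lower (blue), as log2(value + 1); the horizontal axis is the mean of knockout libraries S25 and S27, the vertical axis is S26, and the dashed line marks equal differences. Most points lie nearer to 0 on the S26 axis, where the medians are 0.85 and -0.25, than on the S25 and S27 axis.

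The naming rules given below, apart from the rule on S26, selected 87 called genes, some of which are not reported here. Of these, 21 kept the call whichever single library of the 6 was left out: Trem2, the DAM genes Cst7, Baiap2l2 and Mamdc2, and 17 genes of the neutrophil and monocyte lists, such as S100a8, S100a9, Camp, Ltf, Ly6c2 and Plac8. Baiap2l2 and Mamdc2 are among the genes that passed the filter on low values only through the knockout libraries, so a difference from normal was built into their selection and their calls support nothing. For the rest of these 87 genes, leaving out S25, S27 or 1 normal library ended the call in at least 1 case.

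The later DAM program was present in part. Of 34 tested members of the stage 2 list (37 listed; Gm1673 is not in the table, and Dkk2 and Apoc2 are under the filter), 17 were higher and 1, Trem2 itself, lower in knockout 5xFAD than in normal microglia, against 2.85% and 1.38% of all genes. The count of genes higher includes 3, Baiap2l2, Fabp3 and Mamdc2, that passed the filter only through the knockout libraries and so had to differ. In wild-type 5xFAD 29 of the 34 were higher than normal, against 2.76% of all genes. The median difference from normal was 0.95 in the knockout and 1.87 in the wild type. Tested directly, 13 of the 34 were lower in knockout than in wild-type 5xFAD and none was higher, with a median of -0.99. By library the knockout medians were 1.31, 0.23 and 1.36, so S26 was close to normal on the list as a whole, yet 17 of the 34 genes in S26 lay above every normal library, against 25.8% of all tested genes. Baiap2l2, Fabp3 and Mamdc2 had to be among these 17, because of the filter. Without S26, 27 were called higher and 1 lower, against 18.8% and 21.3% of all genes. Without S25 and without S27, 3 were called higher, each time Cst7, Baiap2l2 and Mamdc2, and of these Baiap2l2 and Mamdc2 had to differ. Without the normal library S20, S21 or S36, 6, 5 and 9 were called higher. With S26 alone the only calls were Cst7 and Trem2.

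Cst7, which encodes cystatin F, an inhibitor of lysosomal cysteine proteases (chromosome 2, 150570415 to 150578944), rose in all 3 knockout libraries. It was 326, 337 and 335 in normal, 5177, 1576 and 5148 in knockout and 21691, 21157 and 24879 in wild-type 5xFAD libraries. All knockout libraries, S26 included, were above every normal and below every wild-type library. The difference from normal was 3.38 ± 0.33 (adjusted p = 4.76e-05) and from wild-type 5xFAD -2.70 ± 0.33 (adjusted p = 5.89e-05). Baiap2l2, a membrane-curving I-BAR protein, and Mamdc2, a MAM-domain protein of the matrix, had next to no reads in normal cells, so their fold changes are given on pooled reads. Baiap2l2 had 1, 1 and 0 reads in normal libraries, and its values were 161, 33.9 and 196 in knockout and 595, 664 and 744 in wild-type 5xFAD. The pooled knockout reads (369) stood against 2 normal reads, a ratio of 192 with an exact 95% counting interval of 52.9 to 1590. Mamdc2 was 0, 0 and 2.27 in normal, 108, 23 and 112 in knockout and 593, 603 and 725 in wild-type 5xFAD, a ratio of 119 over normal (32.7 to 992, counting error only). In both genes S26 lay below S25 and S27, and these lay below every wild-type 5xFAD library. That the normal libraries lay below all knockout libraries was set by the filter, so the ratios only describe genes selected for such a difference. Against wild-type 5xFAD, Mamdc2 was lower (log2 difference -3.26 ± 0.93, adjusted p = 0.0492) while Baiap2l2, at -2.68 ± 0.80 (adjusted p = 0.0609), was not called.

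**Figure D2:**
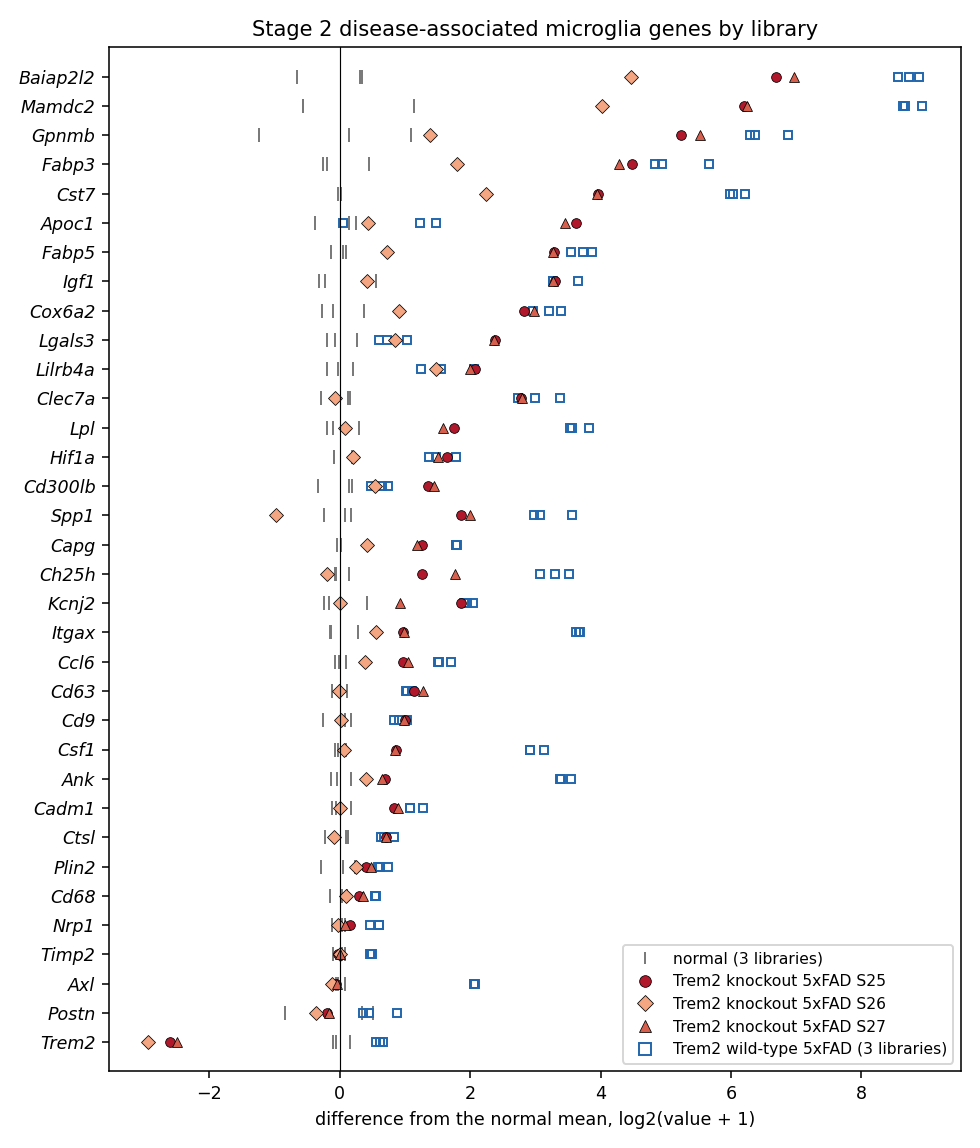
Difference from the normal mean, as log2(value + 1), of the 34 tested stage 2 DAM genes in each library: grey ticks, normal; red circle, diamond and triangle, knockout 5xFAD S25, S26 and S27; open blue squares, wild-type 5xFAD. Axl, Timp2 and Nrp1 sit at the normal level in all knockout libraries, Cst7, Baiap2l2 and Mamdc2 are above normal in all of them, and Clec7a, Spp1 and Lpl are above normal in S25 and S27 while S26 lies within or below the normal libraries. Baiap2l2 and Mamdc2 had to be above normal, because they passed the filter only through the knockout libraries.

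In 3 further members the knockout rose above normal and remained below wild-type 5xFAD. Ank, a transporter of pyrophosphate and ATP, was 886, 828 and 1031 in normal, 1481, 1205 and 1424 in knockout and 9526, 9553 and 10630.5 in wild-type 5xFAD. Its knockout libraries were all slightly above normal, by 0.58 ± 0.12 (adjusted p = 0.0199), and far under wild type (log2 difference -2.86 ± 0.12, adjusted p = 1.75e-10). The chemokine gene Ccl6 rose by 0.80 ± 0.16 (adjusted p = 0.0139) and was below wild type (log2 difference -0.77 ± 0.16, adjusted p = 0.00682). Capg, an actin-capping protein, rose by 0.96 ± 0.21 (adjusted p = 0.023) and differed from wild type by -0.83 (adjusted p = 0.0288). The Ccl6 values were 6023, 5322 and 5557 in normal, 11044, 7337 and 11675 in knockout and 16114, 15957 and 18274 in wild-type 5xFAD libraries, with no overlap between groups.

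A group of 7 stage 2 members were not called against normal and were lower than in wild-type 5xFAD: Axl, Itgax, Lpl, Csf1, Ch25h, Nrp1 and Timp2. Axl, a TAM receptor for apoptotic cells, was 3341, 3280.0 and 3617 in normal, 3284, 3151 and 3298 in knockout and 14171, 14160.2 and 14292 in wild-type 5xFAD. Every knockout library was within or just below the normal range, with a difference of -0.07 ± 0.17 (adjusted p = 0.799) from normal and -2.13 ± 0.17 (adjusted p = 8.05e-07) from wild type. Itgax (CD11c, an integrin) was 397, 296 and 298 in normal, 638, 484 and 647 in knockout and 4027, 4214 and 4158 in wild-type 5xFAD libraries. Its knockout libraries were above normal by 0.84 ± 0.25 (adjusted p = 0.0579), short of the threshold, and below wild type (log2 difference -2.82 ± 0.25, adjusted p = 2.44e-06). Lpl, lipoprotein lipase, was 433, 574 and 409 in normal, 1572, 493 and 1404 in knockout and 5517, 5384 and 6613 in wild-type 5xFAD libraries, and Csf1, the ligand of the microglial survival receptor Csf1r, was 732, 793 and 711 in normal, 1361, 778 and 1334 in knockout and 5639, 5646 and 6502 in wild-type 5xFAD libraries. Both were above normal in S25 and S27, were at the normal level in S26, and differed from wild type by -2.50 (adjusted p = 0.000612) and -2.40 (adjusted p = 0.000174). Ch25h, cholesterol 25-hydroxylase, was 60.3, 70.4 and 61.2 in normal, 154, 55.8 and 220.0 in knockout and 542, 636 and 740.3 in wild-type 5xFAD libraries. All knockout libraries were below wild type (log2 difference -2.35 ± 0.38, adjusted p = 0.000953). Nrp1, a co-receptor, and Timp2, a protease inhibitor, moved over a small range. Nrp1 differed from normal by 0.07 in the knockout and by 0.55 in the wild type, and Timp2 by -0.01 and 0.48.

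The other 12 called members were higher than normal without a called difference from wild-type 5xFAD, which does not show that they were equal to it. Gpnmb, a lysosomal glycoprotein, was 8.04, 44.7 and 22.7 in normal, 802, 54.7 and 979.9 in knockout and 1668, 1771 and 2507 in wild-type 5xFAD. The growth factor gene Igf1 was 87.4, 81.8 and 151 in normal, 1017, 137 and 998 in knockout and 1000.3, 996 and 1298 in wild-type 5xFAD libraries. Clec7a (dectin-1, a receptor for glucans) was 865, 887 and 652 in normal, 5449.7, 757 and 5497 in knockout and 6345, 5268 and 8251 in wild-type 5xFAD libraries. For Igf1 and Clec7a, S25 and S27 were near the wild-type libraries and S26 was inside the normal range, and for Gpnmb S25 and S27 were between normal and wild type and S26 just above normal. Their differences from normal were 4.04 ± 0.88 (adjusted p = 0.0209), 2.33 ± 0.53 (adjusted p = 0.0253) and 1.83 ± 0.49 (adjusted p = 0.0463), and from wild type -2.47 (adjusted p = 0.116), -1.07 (adjusted p = 0.238) and -1.20 (adjusted p = 0.163). With S26 as the only knockout library, the Clec7a difference from normal was -0.07 (adjusted p = 1). Fabp5 and Fabp3, fatty acid carriers, rose by 2.43 ± 0.57 (adjusted p = 0.0287) and 3.52 ± 0.74 (adjusted p = 0.0178), and Cox6a2, a subunit of cytochrome c oxidase, by 2.24 ± 0.41 (adjusted p = 0.00805). Fabp3 passed the filter only through the knockout libraries, so its difference was built into its selection. Lgals3 (galectin-3) was 692, 632 and 873 in normal, 3796, 1306 and 3733 in knockout and 1105, 1199 and 1485 in wild-type 5xFAD, so S25 and S27 stood above every wild-type library. Its difference from normal was 1.86 ± 0.38 (adjusted p = 0.0156) and that from wild type 1.08 ± 0.38 (adjusted p = 0.109). Apoc1, an apolipoprotein, was 7.03, 10.5 and 11.3 in normal, 127, 13.1 and 113 in knockout and 23.6, 27.9 and 9.77 in wild-type 5xFAD libraries, again highest in S25 and S27. The inhibitory receptor gene Lilrb4a was raised in all 3 knockout libraries (log2 difference 1.85), at 642, 420.3 and 606 against 149, 132 and 174 in normal. The hypoxia factor gene Hif1a and the receptor gene Cd300lb rose by 1.12 and 1.12. Lgals3 and Lilrb4a are also expressed by monocytes, whose markers, given below, were above normal in all 3 knockout libraries, and their part was not tested. Of 9 members called in neither test, Spp1 (osteopontin) was 405, 506 and 540.3 in normal, 1753, 244 and 1928 in knockout and 4049, 3794 and 5688 in wild-type 5xFAD libraries, with S26 under the normal libraries and the other knockout libraries above them.

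Of 10 stage 1 DAM genes, Apoe was the 1 called higher in the knockout, and none was lower, against 2.85% of all genes, with a median of 0.44 and library medians of 0.63, 0.07 and 0.78. In wild-type 5xFAD 6 of the 10 were higher than normal, against 2.76% of all genes. Apoe, the main lipid carrier of the brain (chromosome 7, 19696109 to 19699188), was 104575, 91272 and 111538 in normal, 203068, 119275 and 211979 in knockout and 217208, 234867 and 220777 in wild-type 5xFAD, a difference of 0.76 ± 0.20 (adjusted p = 0.0441) from normal and -0.38 ± 0.20 (adjusted p = 0.268) from wild type. S25 and S27 were near wild-type 5xFAD and S26 just above normal. Tyrobp, the Trem2 adaptor, was 30866, 36165 and 28484 in normal, 49836, 36587 and 55866 in knockout and 61627, 59645 and 63063 in wild-type 5xFAD libraries. Its groups did not overlap, but the difference of 0.56 ± 0.20 (adjusted p = 0.0869) missed the threshold. Ctsd, the aspartic protease cathepsin D and the most abundant member, was 380879, 357147 and 356139 in normal, 361888, 385646 and 383219.7 in knockout and 653670.3, 631309 and 675157 in wild-type 5xFAD libraries. All knockout libraries were close to the normal level and under every wild-type library (log2 difference -0.79 ± 0.15, adjusted p = 0.00372). The cathepsin gene Ctsz and Timp2 were also lower than in wild type, with differences of -0.58 (adjusted p = 0.014) and -0.49 (adjusted p = 0.0231). Without S26, 8 of the 10 were called higher than normal, against 18.8% of all genes.

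Among 14 genes of the Trem2 signalling chain, 1 was higher and 2 were lower in the knockout, Trem2 among them, against 2.85% and 1.38% of all genes. The library medians were -0.44, 0.03 and -0.37. The calls were 2 higher and 8 lower without S26, against 18.8% and 21.3% of all genes. They were 0 and 1 without S25 or without S27. Hcst (DAP10), another adaptor that pairs with Trem2, was 266, 282 and 249 in normal and 467, 357 and 573 in knockout, higher by 0.78 ± 0.20 (adjusted p = 0.0375) with no overlap, and Vav1, a guanine nucleotide exchange factor, was 14135, 11684 and 13146 in normal and 6882, 11332 and 7253 in knockout libraries, lower (log2 difference -0.65 ± 0.16, adjusted p = 0.0383). In Vav1 S26 was close under the normal libraries. The phosphatase gene Inpp5d (SHIP1) and Spi1, which encodes the myeloid transcription factor PU.1, differed by -0.59 (adjusted p = 0.155) and -0.22 (adjusted p = 0.163) and were not called.

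Few homeostatic genes were called. Of 30 tested, none was higher and 2 were lower, against 1.38% of all genes, with a median of -0.26 and library medians of -0.35, -0.11 and -0.33. All 3 knockout libraries lay below every normal one in 13 of the 30 and above in 1, against 8.93% and 11.5% of all genes. By library 21, 15 and 22 were below every normal library, against 38.9%, 26.7% and 39.1% of all genes. Above were 4, 4 and 2, against 42.1%, 25.8% and 41.9%. At an unadjusted limma p under 0.05, 9 were lower and 1 higher than normal. DESeq2 called 7 lower, GC-corrected values gave 7 lower, and array weights 3 higher and 14 lower. Upper-quartile and quantile scaling left no member called, nor did leaving out any 1 library other than S26. Bin1, a membrane-bending adaptor, fell (log2 difference -0.52 ± 0.13, adjusted p = 0.039), from 16818, 15991 and 17751 to 10877, 13791 and 10793, and Selplg, a surface glycoprotein, fell (log2 difference -0.81 ± 0.22, adjusted p = 0.0459), from 146833, 131842 and 155867 to 63122, 130206 and 67493. Tmem119, a microglial surface marker, was 160760.4, 151191 and 168308 in normal, 75270.1, 150624 and 79525 in knockout and 98924, 101085 and 93678 in wild-type 5xFAD. S25 and S27 were below wild type and S26 just below normal, and the difference from normal of -0.73 ± 0.22 (adjusted p = 0.0638) was not called. Csf1r, the growth factor receptor, was 407854, 328008 and 369802 in normal, 153808, 339016 and 156174 in knockout and 315720.0, 308893 and 281812 in wild-type 5xFAD libraries, and Sall1, a transcription factor of microglial identity, 8692, 8386 and 8731 in normal, 3644, 9289 and 3419.9 in knockout and 6103, 6317 and 5765 in wild-type 5xFAD libraries. Among the knockout libraries both were below normal in S25 and S27 and not in S26, and every wild-type 5xFAD library was also below every normal one. P2ry12, the ADP receptor, was 44537, 65571 and 51732 in normal and 67152, 45584 and 64608 in knockout libraries, with S25 just above the normal range and the others within it. With the GC trend removed and S26 left out, its difference turned from 0.13 to -0.44 (adjusted p = 0.00882). Without S26, 10 of 30 homeostatic genes were called lower and 2 higher, against 21.3% and 18.8% of all genes. No member was called between the 5xFAD groups except Ecscr, an endothelial and microglial surface protein, which was 2826, 2820.1 and 2620.2 in wild-type 5xFAD and 3992, 5176 and 4275 in the knockout, a difference of 0.69 ± 0.20 (adjusted p = 0.0491). Between these groups 3 members were higher and 1 lower in the knockout at an unadjusted limma p under 0.05.

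The 12 microglial markers summed to 1308251 to 1394905 in normal and 970694 to 1186159 in knockout libraries. The sum in S26 was 1186159, and 970694 and 980167 in S25 and S27. None of the 12 was called by limma (0 higher and 4 lower at an unadjusted limma p under 0.05, while edgeR called 0 higher and 1 lower and DESeq2 0 and 4), and no defining marker of microglia was at 0. In such bulk RNA, fewer cells of a type and less RNA per cell cannot be told apart.

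Neutrophil and monocyte markers stood above normal in every knockout library. Of 17 tested neutrophil markers (18 listed; Retnlg is not in the table), 14 were called higher and none lower, against 2.85% of all genes. Their values summed to 20360.0 to 34387 in normal libraries, to 138029, 59121 and 148718 in S25, S26 and S27, and to 15884 to 19016 in wild-type 5xFAD. No marker was at 0 in all 6. Each knockout library was above every normal and wild-type library, and S26 also stood apart here, with 16 of the 17 above every normal library. The median difference was 2.83 (library medians 2.97, 1.83 and 3.20), and in wild-type 5xFAD 5 of the 17 were lower than normal, against 0.992% of all genes. Without S25 or without S27, 12 of the 17 were called, and with S26 alone none was called. S100a8, a calcium-binding alarmin of neutrophil cytosol (chromosome 3, 90668978 to 90670035), was 3835, 2153 and 2508 in normal, 29831, 9755 and 33425 in knockout and 832, 846 and 1185 in wild-type 5xFAD. The difference from normal was 2.96 ± 0.42 (adjusted p = 0.00152), and that from wild type 4.50 ± 0.42 (adjusted p = 3.96e-06). Genes of neutrophil granules rose likewise: Camp (cathelicidin) by 2.62 ± 0.41 (adjusted p = 0.00242), Ltf (lactoferrin) by 2.47 ± 0.42 (adjusted p = 0.00472), Lcn2 (lipocalin 2) by 2.62 ± 0.41 (adjusted p = 0.00273) and Mmp8 (a collagenase) by 2.91 ± 0.43 (adjusted p = 0.00163). Ltf was 2964, 1083 and 2406 in normal and 13560.1, 7146 and 13702 in knockout libraries. The early granule genes behaved otherwise: Mpo (myeloperoxidase) was 52.2, 8.56 and 217 in normal and 6763, 276 and 7346 in knockout libraries, and Elane (neutrophil elastase) 83.4, 8.56 and 68 in normal and 2419, 107 and 2507 in knockout libraries. They were far above normal in S25 and S27 and just above it in S26, and neither was called (adjusted p = 0.135 and 0.154). Csf3r, a receptor also present in microglia, was 14129, 11186 and 10586 in normal and 6698, 11101 and 7184 in knockout libraries and was not called.

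Of 19 tested monocyte markers, 10 were higher and none lower, again against 2.85% of all genes, with sums of 6974 to 9486 in normal libraries and 28177, 15011 and 29254 in S25, S26 and S27. Without S25 or without S27, 7 of the 19 were called. Ly6c2, a surface protein of inflammatory monocytes, was 338, 315 and 338 in normal and 2912, 1042 and 3032 in knockout libraries, higher by 2.66 ± 0.38 (adjusted p = 0.00153). Hp (haptoglobin) and Plac8 rose by 2.60 (adjusted p = 0.00125) and 2.34 (adjusted p = 0.00163). Ccr2, the chemokine receptor of the same cells, was 525, 692 and 601 in normal and 1896, 735 and 1589 in knockout libraries, a difference of 1.11 ± 0.33 (adjusted p = 0.0589) that was not called. Among macrophages of hematopoietic origin 1 of 16 markers was higher (Emp3, 0.58) and 1 lower (Tmem176b, -0.61), against 2.85% and 1.38% of all genes. No border-associated macrophage marker of 14 was called in the knockout against normal. Their sums were 19110.0 to 30039 in normal, 16775 to 24539 in knockout and 13627 to 15171 in wild-type 5xFAD libraries. In wild-type 5xFAD 5 of the 14 were lower than normal, against 0.992% of all genes. Compared directly, 4 were higher in knockout than in wild-type 5xFAD, against 2.62%. Between knockout and normal, none of the 17 tested T and NK cell markers was called. Also without a call were 5 B cell, 6 erythroid, 10 oligodendrocyte, 12 endothelial and 3 neuronal markers. Of 13 astrocyte markers 1, Gfap, was higher, by 1.59 (adjusted p = 0.0475), against 2.85% of all genes. At an unadjusted limma p under 0.05 the numbers higher and lower were 0 and 5 for border macrophages, 0 and 0 for T and NK cells, 4 and 0 for erythroid cells and 5 and 0 for endothelial cells. They were 9 and 1 for astrocytes, 2 and 1 for oligodendrocytes and 1 and 0 for B cells. Astrocyte library medians were 1.54, 0.10 and 1.38. Above every normal library were 12, 2 and 12 of the 13, against 42.1%, 25.8% and 41.9% of all genes, and below were 1, 2 and 1. DESeq2 called 0 erythroid and 4 endothelial markers higher. The erythroid sum was 45.3 to 537 in normal and 1740.2 to 2462 in knockout libraries, above normal in all 3. S26 held the highest T and NK cell sum, 2515 against 938 and 1054 in S25 and S27 and 1039 to 1658 in normal libraries.

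**Figure D3:**
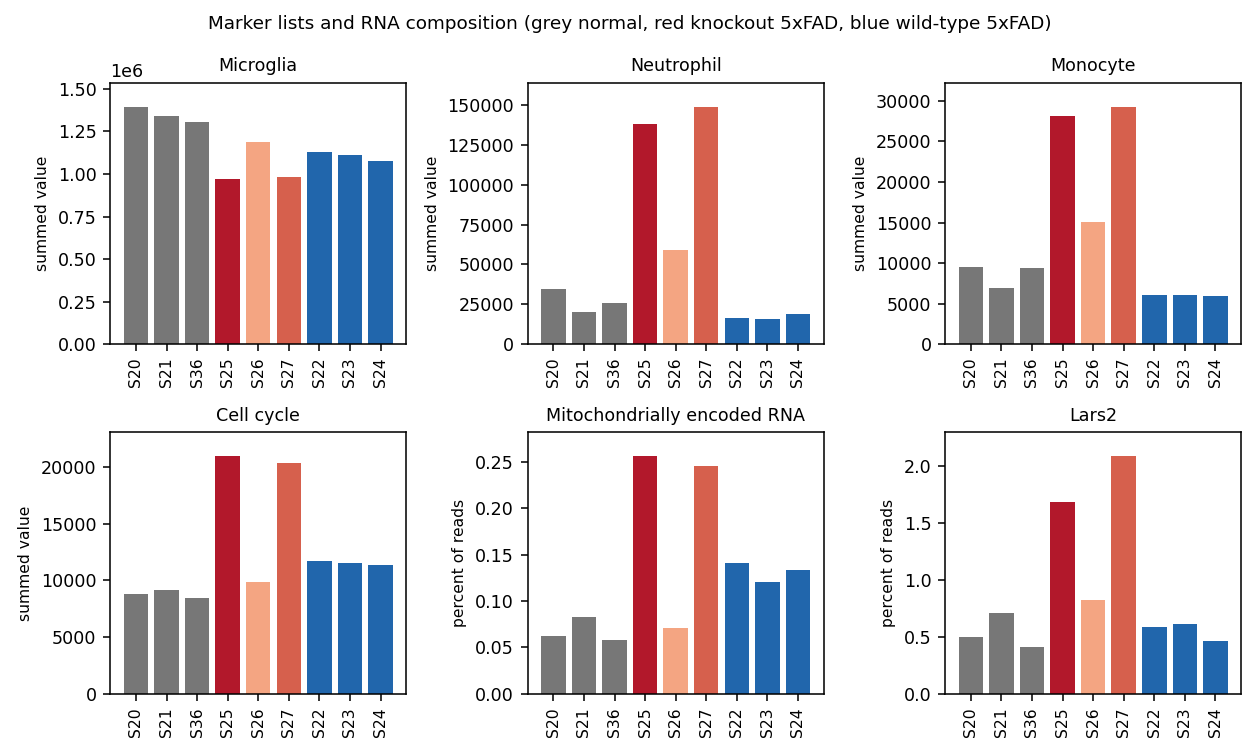
Summed normalized read count of 4 gene lists and the percent of reads from mitochondrially encoded genes and from Lars2 in each library (grey, normal; red shades, knockout 5xFAD; blue, wild-type 5xFAD). Neutrophil and monocyte sums are above normal in all 3 knockout libraries, and among the knockout libraries the cell cycle sum and the mitochondrial and Lars2 shares are highest in S25 and S27. The wild-type 5xFAD libraries are also above normal in the cell cycle sum, at 11368 to 11706 against 8448 to 9133, and in the mitochondrial share.

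Interferon-response genes were above normal in S25 and S27 and mostly not in S26. Type I interferon signals through a complex that holds Stat2 and Irf9 and binds an interferon-stimulated response element in the promoters of antiviral genes. Of 38 tested members, 13 were higher and none lower, against 2.85% and 1.38% of all genes, with a median of 1.08 and library medians of 1.44, 0.11 and 1.47. In S25 and in S27, 37 of 38 lay above every normal library, against 42.1% and 41.9% of all genes, and in S26 11 of 38 did, against 25.8%. Without S26, 35 of 38 were called, and with S26 alone none. Over all genes, 18.8% were called higher without S26. Of the 38, 0 were called higher without S25 and 0 without S27, and 1, 8 and 3 without the normal library S20, S21 or S36. The neutrophil and monocyte sums were above normal in the same libraries, and their part was not tested. In wild-type 5xFAD 6 of the 38 were higher than normal, against 2.76% of all genes. None of the 38 was called between knockout and wild-type 5xFAD (5 higher and 1 lower at an unadjusted limma p under 0.05). Ifitm3, a membrane protein that blocks viral entry, was 1559, 1728 and 1493 in normal, 4506, 2137 and 5328 in knockout and 2404, 2312 and 2513 in wild-type 5xFAD, higher than normal by 1.22 ± 0.23 (adjusted p = 0.00982). Oasl2, of the oligoadenylate synthetase family, was 411, 525 and 420.2 in normal, 1129.8, 570.2 and 1095 in knockout and 1099.6, 1119 and 1304 in wild-type 5xFAD libraries, a difference of 0.98 ± 0.20 (adjusted p = 0.0163), and Oas1a, which makes the oligoadenylates that activate RNase L, was 349, 542 and 425 in normal, 1456, 552 and 1484 in knockout and 890.3, 1021 and 1174 in wild-type 5xFAD libraries, a difference of 1.30 ± 0.28 (adjusted p = 0.0213). In both, S26 was just above the normal libraries. Ifi27l2a was 653, 1046 and 734 in normal, 3135, 1001 and 3530.4 in knockout and 1419.9, 1567 and 1884 in wild-type 5xFAD libraries, with S26 inside the normal range.

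Promoters of these genes were searched for the core of the response element, GAAANNGAAA on either strand, in the 250 bases before the gene start (RefSeq promoters, GRCm38.p6); overlapping matches were each counted as matches of the same gene. Of the 38 members 28 had a promoter entry, and 14 of the 28 (50%) held the motif, against 3.36% of the 9110 tested genes with an entry. Among the called members 2 of 7 held it. A match is a description of the letters only. To show what such a promoter looks like, the motif is given in capitals for the 2 called members that hold it and for the 2 uncalled ones with the smallest p, chosen after their values were seen and written 5′ to 3′ on the gene's strand.
Oas1a (chr5:120907526-120907580, minus strand): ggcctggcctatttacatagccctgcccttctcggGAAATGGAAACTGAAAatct
Trim30a (chr7:104465194-104465264, minus strand): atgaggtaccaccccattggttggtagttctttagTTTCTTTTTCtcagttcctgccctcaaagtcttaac
Oas3 (chr5:120777690-120777769, minus strand): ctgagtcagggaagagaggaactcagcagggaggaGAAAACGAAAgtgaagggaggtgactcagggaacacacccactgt
Isg15 (chr4:156200840-156200931, minus strand): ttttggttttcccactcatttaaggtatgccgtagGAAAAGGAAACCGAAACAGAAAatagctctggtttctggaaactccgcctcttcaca
Oas1a and Isg15 hold overlapping or repeated copies, and in Trim30a the motif is on the opposite strand, where it reads as its reverse complement. Trim30a, a ubiquitin ligase of the TRIM family, rose by 0.97 ± 0.26 (adjusted p = 0.047). Oas3 and the ubiquitin-like modifier Isg15 differed by 1.09 (adjusted p = 0.0558) and 1.18 (adjusted p = 0.0576), short of the threshold.

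MHC class II molecules present peptides to CD4 T cells. None of 11 listed genes was called between knockout and normal (median -0.17; 0 higher and 0 lower at an unadjusted limma p under 0.05; edgeR and DESeq2 also called 0). The library medians were -0.30, 0.02 and -0.25. Below every normal library were 8 of the 11 in S25, 1 in S26 and 7 in S27, against 38.9%, 26.7% and 39.1% of all genes. The calls were 0 higher and 2 lower without S26, against 18.8% and 21.3% of all genes. They were 0 in each direction without S25 or without S27. In wild-type 5xFAD 1 was higher and 4 were lower than normal, the latter against 0.992% of all genes. Between the 5xFAD groups 4 were higher and 2 lower in the knockout, against 2.62% and 2.74% of all genes. H2-Aa, the alpha chain (chromosome 17, 34282744 to 34287823), was 13414, 14249 and 14286 in normal, 12913, 13675 and 12646 in knockout and 5258, 5609 and 5815 in wild-type 5xFAD. Knockout and normal overlapped, and all 6 of these libraries were above every wild-type 5xFAD library. The difference from normal was -0.10 ± 0.20 (adjusted p = 0.769) and from wild type 1.23 ± 0.20 (adjusted p = 0.000697). The beta chain gene H2-Ab1 was 28352, 31889 and 27761 in normal, 23777, 29763 and 23993 in knockout and 11951, 12056 and 13339.9 in wild-type 5xFAD libraries, higher than in wild type by 1.05 ± 0.23 (adjusted p = 0.0114). Cd74, the invariant chain, was 61872, 56789.8 and 62116 in normal, 35853, 61031 and 38869 in knockout and 27144, 27772 and 27895 in wild-type 5xFAD libraries. Here S26 was at the normal level and S25 and S27 lay between normal and wild type, and the difference from wild type of 0.67 ± 0.23 (adjusted p = 0.102) was not called. Monocytes and border macrophages also express these genes. The monocyte sums given above were higher in the knockout, and the border macrophage sums were lower in wild-type 5xFAD than in both other groups. The part of these cells was not tested. None of 21 MHC class I genes was called against normal (0 higher and 3 lower at an unadjusted limma p under 0.05, while edgeR called 0 higher and 0 lower and DESeq2 0 and 0). H2-D1, a classical class I heavy chain, was 34126, 35011 and 32257 in normal, 39734, 33919 and 40907 in knockout and 57555, 54739.5 and 62554 in wild-type 5xFAD, lower than in wild type (log2 difference -0.61 ± 0.17, adjusted p = 0.0447).

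**Figure D4:**
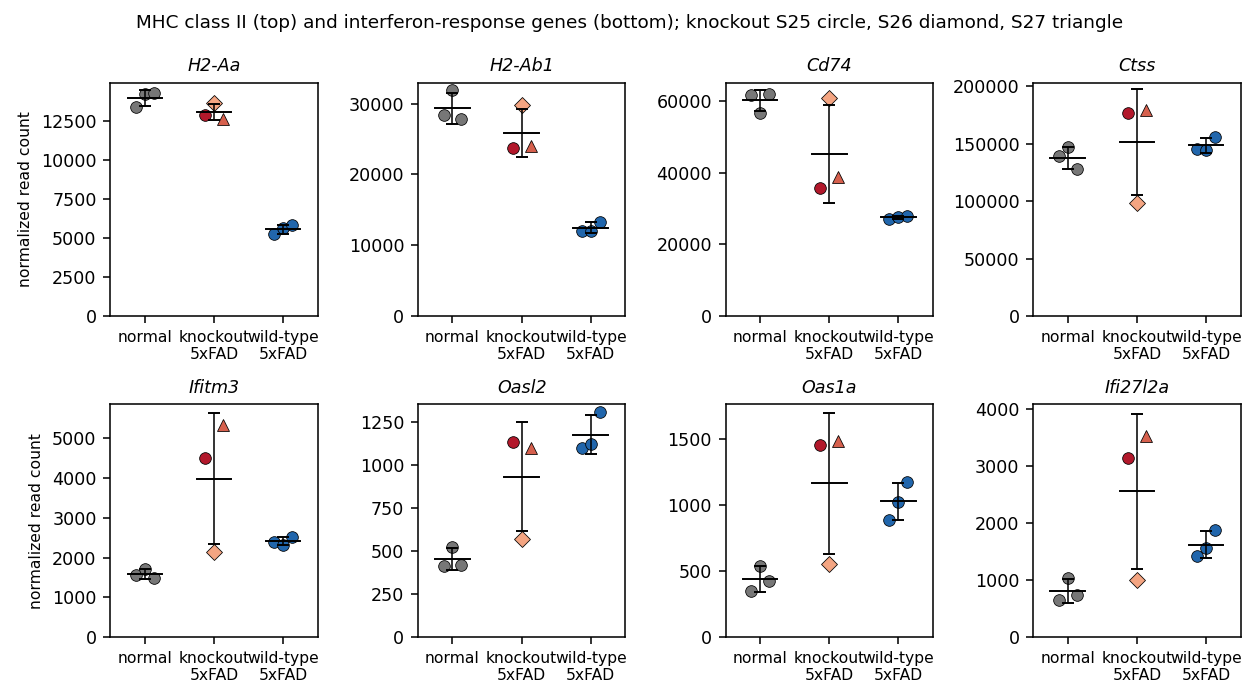
Normalized read count per library of 4 members of the MHC class II list (top) and 4 interferon-response genes (bottom) in normal (grey), knockout 5xFAD (red; circle S25, diamond S26, triangle S27) and wild-type 5xFAD (blue); lines are means and bars SD over 3 libraries. H2-Aa and H2-Ab1 stay near normal in the knockout and are lower in wild-type 5xFAD, and the interferon-response genes are high in S25 and S27. In S26 Ifi27l2a is within the normal range, Oasl2 and Oas1a are just above it, and Ifitm3 lies between normal and wild-type 5xFAD.

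Of 25 tested chemokine and cytokine genes 5 were higher in the knockout and none lower, against 2.85% and 1.38% of all genes. The library medians were 0.89, -0.02 and 0.84. The calls were 11 higher and 1 lower without S26, against 18.8% and 21.3% of all genes. They were 0 in each direction without S25 or without S27. Ccl3 and Ccl4 (MIP-1), chemokines that attract leukocytes, were 1029, 739 and 599 and 1867, 1638 and 1186 in normal libraries and 4004, 1467 and 4003 and 5618, 3362 and 5616 in knockout libraries. Both were above normal in all 3 knockout libraries, by 1.89 ± 0.41 (adjusted p = 0.0199) and 1.62 ± 0.41 (adjusted p = 0.039). In wild-type 5xFAD they were 8104, 7212 and 10036 and 13518, 12447 and 19367, and the differences of the knockout from them were -1.55 ± 0.41 (adjusted p = 0.033) and -1.65 ± 0.41 (adjusted p = 0.0243). Cxcl2, which attracts neutrophils, was 107, 20.9 and 73.6 in normal and 267, 167 and 212 in knockout libraries, higher by 1.93 ± 0.44 (adjusted p = 0.0258). Ccl6 and Igf1, given above, complete the count.

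Immediate early genes switch on within minutes of a stimulus. Of 20 tested, 1, Fosb, was higher in the knockout than in normal microglia, by 1.19 (limma adjusted p = 0.0405), against 2.85% of all genes. The calls were 3 higher and 2 lower without S26, against 18.8% and 21.3% of all genes. They were 0 in each direction without S25 or without S27. In the other comparisons 12 were higher in wild-type 5xFAD than in normal, against 2.76% of all genes, and 8 were lower in the knockout than in wild-type 5xFAD, against 2.74%. Library medians were 0.18, 0.74 and 0.12, so S26 stood above the other knockout libraries here, with 17 of 20 genes above every normal library, against 25.8% of all genes. Dusp1, a phosphatase that ends MAP kinase signalling, was 14283, 9640.1 and 10627 in normal, 10147, 22473 and 10476 in knockout and 29915, 29951 and 35399 in wild-type 5xFAD, and was lower in the knockout than in wild type (log2 difference -1.24 ± 0.27, adjusted p = 0.00978). Of 18 NF-kB genes none was higher and 1 (Nfkbie) lower in the knockout, against 2.85% and 1.38% of all genes. The calls were 3 higher and 6 lower without S26, against 18.8% and 21.3% of all genes. They were 0 in each direction without S25 or without S27. In the knockout 5 were lower than in wild-type 5xFAD, against 2.74% of all genes. Nfkbia, the feedback inhibitor IkB-alpha, was 5297, 3653 and 4463 in normal, 4777, 4179 and 5025 in knockout and 8064, 8302 and 9654 in wild-type 5xFAD libraries, with every knockout library in the normal range and a difference of -0.90 (adjusted p = 0.00372) from wild type. Cd83, an activation marker, was 8711, 8669.9 and 7494 in normal, 11031, 7892 and 11656 in knockout and 18283, 18128 and 20515 in wild-type 5xFAD libraries, and the knockout differed from wild type by -0.91 (adjusted p = 0.0025). Of 19 heat shock and stress genes 1, Xbp1, was lower than normal, at -0.54 (adjusted p = 0.0217), against 1.38% of all genes. The calls were 5 higher and 6 lower without S26, against 18.8% and 21.3% of all genes. They were 0 in each direction without S25 or without S27.

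Of 42 lysosomal genes none was higher and 1, Tpp1, was lower in the knockout, against 2.85% and 1.38% of all genes, with a median of 0.02 and library medians of -0.01, -0.00 and 0.04. By library 15, 10 and 19 members lay above every normal library in S25, S26 and S27, against 42.1%, 25.8% and 41.9% of all genes. Below every normal library were 17, 15 and 15, against 38.9%, 26.7% and 39.1%. The calls were 11 higher and 10 lower without S26, against 18.8% and 21.3% of all genes. They were 0 in each direction without S25 or without S27. In wild-type 5xFAD 13 were higher than normal, against 2.76% of all genes, and 12 were lower in the knockout than in wild type, against 2.74%. Tpp1, a tripeptidyl peptidase, was 11488, 9321 and 10260.5 in normal and 7539, 7819 and 7657 in knockout libraries, all knockout libraries below normal (log2 difference -0.43 ± 0.11, adjusted p = 0.0384). Of 16 complement genes C3, the central component, was the 1 called, where 2.85% of all genes were called higher. It was 310.5, 236 and 443 in normal, 785, 642 and 1103 in knockout and 289, 426 and 347 in wild-type 5xFAD. C3 was higher by 1.36 ± 0.25 (adjusted p = 0.00784) than normal and 1.23 (adjusted p = 0.0057) than wild type. C1qa, C1qb and C1qc, which start the classical pathway, differed from normal by -0.03, 0.01 and -0.26 and were not called. Of 27 phagocytic and scavenger receptor genes 1 was higher (Clec7a) and 1 lower (Elmo1, an engulfment adaptor, -0.66), against 2.85% and 1.38% of all genes. The calls were 4 higher and 5 lower without S26, against 18.8% and 21.3% of all genes. They were 0 in each direction without S25 or without S27.

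Lipid genes included 5 of 34 higher and none lower, against 2.85% and 1.38% of all genes: Apoe, Apoc1, Fabp3 and Fabp5, given above, and Dgat2, which makes triglycerides. The count includes Fabp3, which passed the filter only through the knockout libraries and so had to differ. The calls were 13 higher and 4 lower without S26, against 18.8% and 21.3% of all genes. They were 0 in each direction without S25 or without S27. Dgat2 was 84.4, 46.6 and 60 in normal, 193, 159.8 and 224 in knockout and 94.3, 105 and 118 in wild-type 5xFAD, raised in all 3 knockout libraries by 1.61 ± 0.32 (adjusted p = 0.0137). The cholesterol exporter gene Abca1 differed by -0.03 (adjusted p = 0.926). In cholesterol synthesis 1 of 24 was higher (Tm7sf2, a sterol reductase, 0.79), against 2.85% of all genes. For glycolysis and hypoxia 3 of 22 were higher in the knockout, against 2.85% of all genes, and 15 in wild-type 5xFAD, against 2.76%. Tested directly, 5 were lower and 1 higher in the knockout than in wild type, against 2.74% and 2.62% of all genes. The glycolysis calls against normal were 10 higher and 1 lower without S26, against 18.8% and 21.3% of all genes. They were 0 in each direction without S25 or without S27. Hif1a, the hypoxia-inducible factor, was 2069, 2509 and 2079.7 in normal, 6942, 2558 and 6273 in knockout and 6177, 5687 and 7622 in wild-type 5xFAD, with S26 just above normal. Gpi1, glucose-6-phosphate isomerase, was 2912, 2531 and 2799 in normal, 4599.5, 3606 and 3990.0 in knockout and 4002, 4400.4 and 4056 in wild-type 5xFAD libraries, above normal in every library of both 5xFAD groups, by 0.56 ± 0.14 (adjusted p = 0.0386) in the knockout. Pfkp, the platelet form of phosphofructokinase, was 297, 179.8 and 240.1 in normal, 388, 364 and 409.7 in knockout and 184, 159.7 and 193 in wild-type 5xFAD libraries, higher in the knockout than in normal by 0.72 (adjusted p = 0.047) and than in wild type by 1.11 ± 0.20 (adjusted p = 0.00186).

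Cell cycle genes stood above normal in S25 and S27. Of 34 members 14 were higher and none lower, against 2.85% and 1.38% of all genes, with library medians of 2.09, 0.32 and 1.95, and 31 of 34 were called without S26 and none with S26 alone. Over all genes, 18.8% were called higher without S26. Of the 34, 0 were called higher without S25 and 0 without S27, and 1, 3 and 4 without the normal library S20, S21 or S36. In wild-type 5xFAD none was called (median 0.70, 9 higher and 0 lower at an unadjusted limma p under 0.05). Ccna2 (cyclin A2) was 119, 102 and 120.1 in normal, 532, 188 and 430.3 in knockout and 157, 185 and 219 in wild-type 5xFAD, higher than normal by 1.62 ± 0.29 (adjusted p = 0.00716), with S26 also above normal. Hmgb2, a chromatin protein of dividing cells, was 529.5, 529 and 539 in normal, 2726, 635 and 2656 in knockout and 603, 609 and 678 in wild-type 5xFAD libraries, higher than normal by 1.64 ± 0.36 (adjusted p = 0.0213) and than wild type by 1.40 (adjusted p = 0.0285). The neutrophil and monocyte sums moved with these genes, and their part was not tested. The 38 ribosomal protein genes, of which none was called by limma (28 higher and 0 lower at an unadjusted limma p under 0.05, while edgeR called 3 higher and 0 lower and DESeq2 13 and 0), had library medians of 0.74, 0.03 and 0.81. Of 11 mitochondrially encoded genes 2 were called higher by limma, against 2.85% of all genes (library medians 1.98, 0.11 and 2.07). For these 11, edgeR called 10 higher and 0 lower and DESeq2 11 and 0. Their limma calls were 11 higher and 0 lower without S26, against 18.8% and 21.3% of all genes. They were 0 in each direction without S25 or without S27. Of 33 nuclear genes of oxidative phosphorylation Cox6a2 was the 1 called by limma, where 2.85% of all genes were called higher. For this list edgeR called 1 higher and 0 lower and DESeq2 4 and 0. Library medians of these 33 genes were 0.37, -0.03 and 0.47. The limma calls were 16 higher and 1 lower without S26, against 18.8% and 21.3% of all genes. They were 0 in each direction without S25 or without S27.

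**Figure D5:**
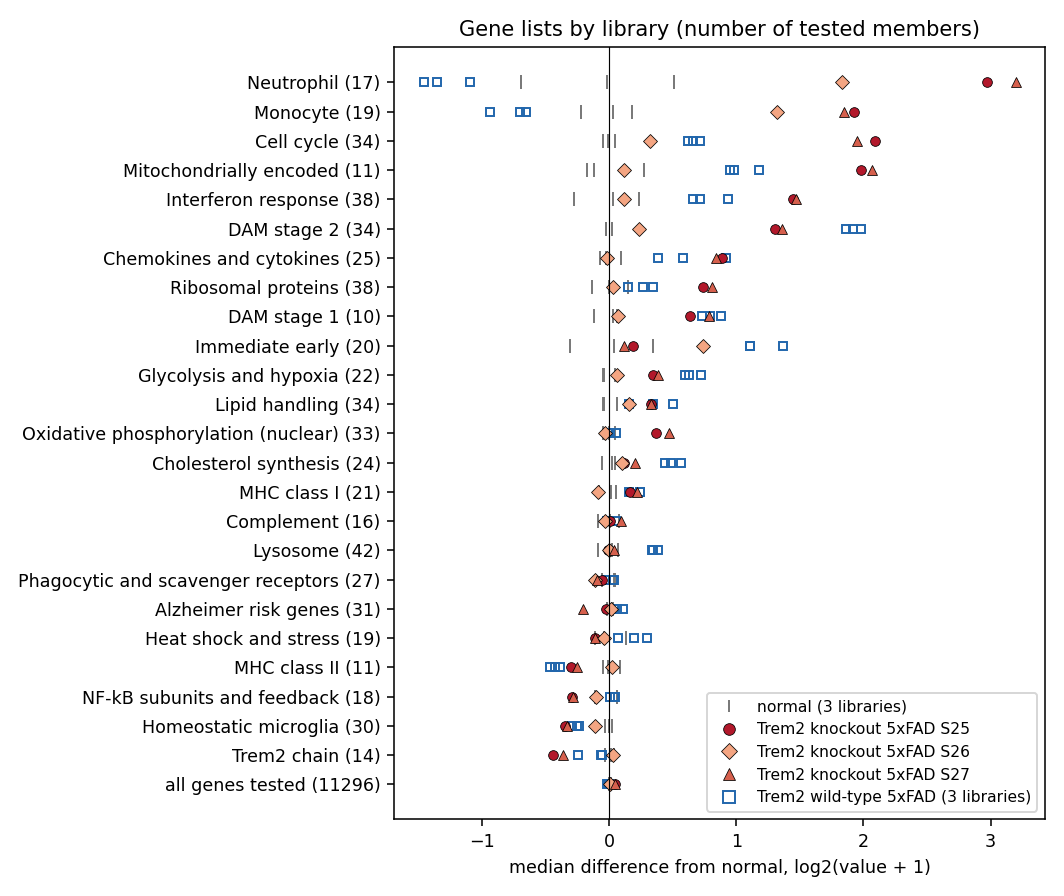
Median difference from the normal mean over the tested members of the gene lists plotted and over all genes, as log2(value + 1), by library: grey ticks, normal; red circle, diamond and triangle, knockout 5xFAD S25, S26 and S27; open blue squares, wild-type 5xFAD. Among the lists plotted, the S26 medians are highest for the neutrophil, monocyte and immediate early lists, at 1.83, 1.32 and 0.74, followed by 0.32 for the cell cycle list and 0.23 for stage 2 DAM.

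Genes tied to human Alzheimer's disease risk were 1 higher and 3 lower of 31: Apoe, and Trem2, Bin1 and Cass4, against 2.85% and 1.38% of all genes. The calls were 7 higher and 10 lower without S26, against 18.8% and 21.3% of all genes. They were 0 and 1 without S25 or without S27. Cass4, a scaffold of focal adhesions, was 860.1, 895 and 788 in normal, 293, 748 and 318 in knockout and 459.9, 475 and 477 in wild-type 5xFAD, with a difference from normal of -1.04 ± 0.27 (adjusted p = 0.0425). Of 21 genes that process or degrade amyloid precursor, Mmp9 and Ide were higher, against 2.85% of all genes. The calls were 2 higher and 4 lower without S26, against 18.8% and 21.3% of all genes. They were 0 in each direction without S25 or without S27. Ide, the insulin-degrading enzyme, which also cleaves amyloid beta, was 888, 649.7 and 927 in normal and 1749, 1074 and 1418 in knockout libraries, higher in all 3 by 0.77 ± 0.19 (adjusted p = 0.0326). Mmp9, a gelatinase also stored in neutrophil granules, was 1122, 344 and 679.6 in normal, 3349, 2540.2 and 3778 in knockout and 279, 239 and 287 in wild-type 5xFAD libraries, higher than normal by 2.31 ± 0.42 (adjusted p = 0.00805) and than wild type by 3.57 (adjusted p = 3.8e-05). The endogenous App gene differed by -0.03 (adjusted p = 0.885) and was not called.

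The largest falls after Trem2 were in Zc3h3, Rbm15b, Hs6st1, Fscn1 and Eng, and in all 5 S26 was the knockout library nearest to normal. Zc3h3, an RNA export factor, was 661, 618 and 677 in normal and 161, 471 and 223 in knockout libraries, lower (log2 difference -1.34 ± 0.30, adjusted p = 0.023). Fscn1 (fascin, an actin bundler) was 16627, 15623 and 14592 in normal and 4294, 11725 and 5845 in knockout libraries, lower (log2 difference -1.23 ± 0.33, adjusted p = 0.0469). Among the genes with the widest gap between the groups, several fell by a like amount in all 3 knockout libraries. Ifngr1, the ligand-binding chain of the interferon gamma receptor, was 28420.4, 26888 and 28156 in normal and 20179, 21206 and 20083 in knockout libraries, lower (log2 difference -0.44 ± 0.12, adjusted p = 0.0446), and was 22996, 21757 and 19201 in wild-type 5xFAD. Slamf8, a receptor that restrains the phagocyte oxidase, was 840.0, 950.3 and 554 in normal, 410.2, 437 and 418 in knockout and 748, 801 and 735 in wild-type 5xFAD libraries, lower than normal (log2 difference -0.85 ± 0.18, adjusted p = 0.019) and than wild type (log2 difference -0.85 ± 0.18, adjusted p = 0.00856). Cpox, of haem synthesis, was 645, 689 and 723 in normal, 456, 484 and 455 in knockout and 617, 605 and 612 in wild-type 5xFAD libraries, lower than normal (log2 difference -0.56 ± 0.15, adjusted p = 0.0485). The median transcript GC content was 53.4% over the genes called lower, 49.1% over those called higher and 50.2% over all tested.

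At the edge of the filter, 326 genes reached a value of 10 in exactly 3 of the 6 libraries and were included, and 400 reached it in 2 and were not. Of the included genes 90 passed through the knockout libraries alone and 4 through the normal libraries alone.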

How the data were processed

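Libraries of sorted microglia from 5 groups were read from 1 table of the series. The values are signal: the submitters' processing notes name DESeq2 3.17, RSEM, HTSeq, STAR 2.5.2b and bcl2fastq as tools and mm10 and GRCm38.p6 as builds, and the deposited signal behaves as read counts divided by 1 factor per library. Every value was a whole multiple of its library's step (100% of values, within a tolerance of 0.02), which gave back whole reads: 16044078 to 30606394 over the 17 libraries. Intervals on reads cover counting error only, since the labels name no molecular identifiers.

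Differences were fitted with limma 3.58.1 (lmFit and eBayes with trend, R 4.3.3) on log2(value + 1) with 1 mean per group over all 17 libraries, so that the 3 or 4 libraries of each group share 1 estimate of spread. The 11296 genes that reached a value of 10 in 3 or more of the 6 compared libraries were tested, two-sided, with Benjamini-Hochberg adjustment, and called at an adjusted p under 0.05. The fold of low genes is understated by the pseudocount of 1. The same fit gave the contrasts of wild-type 5xFAD with normal and of both 5xFAD groups. Alternatives used edgeR 4.0.16 and DESeq2 1.42.0 on the whole reads, other pseudocounts, filters and scalings, fewer libraries, array weights and a GC correction (lowess, span 0.3) added after a GC trend was seen. The fit was tested on simulated data.

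The members, the gene lists and the tests were chosen with earlier results of these data known. Genes are named by rule: Trem2, Tyrobp and App, the 12 largest called rises and falls, the 10 widest gaps between groups in each direction, up to 6 called members of each list by p and up to 4 uncalled ones by level, any member of the DAM and homeostatic lists, and the 8 genes in each direction in which S26 differs most from S25 and S27. Some genes these rules select are not reported here. Positions and GC content are from GENCODE vM21 (GRCm38) and promoters from RefSeq (GRCm38.p6).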

Additional observations from a re-analysis of the deposited data

Results flagged for a closer look

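The following genes were called in opposite directions against normal microglia in the 2 5xFAD genotypes, and the difference between the genotypes was itself tested in the same limma fit. Trem2 was higher than normal in wild-type 5xFAD by 0.61 ± 0.16 (adjusted p = 0.0401) and lower in the knockout, with a difference between knockout and wild type of -3.29 (adjusted p = 5.68e-10). The other 6 are neutrophil products. Camp differed between the genotypes by 4.44 (adjusted p = 3.96e-06), Ngp by 4.20 (adjusted p = 7.01e-06), S100a8 by 4.50 (adjusted p = 3.96e-06), S100a9 by 4.50 (adjusted p = 2.87e-06), Slpi by 4.49 (adjusted p = 6.26e-06) and Wfdc21 by 4.44 (adjusted p = 3.96e-06). Slpi, a leukocyte protease inhibitor, was 171, 129 and 176 in normal, 1174, 448 and 1409 in knockout and 23.6, 29.4 and 87.2 in wild-type 5xFAD libraries. Camp was 921, 498 and 878 in normal, 6062, 2296 and 6780.1 in knockout and 233, 211 and 186 in wild-type 5xFAD libraries. In both genes the 3 groups did not overlap, and S26 lay between the normal libraries and S25 and S27. Both contrasts with normal share the same 3 normal libraries. The part that neutrophils among the sorted cells had in these values was not tested.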

How the results depend on the processing

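Between knockout 5xFAD and normal, the 322 genes called higher and 156 called lower stayed within 1.5 times those counts with a pseudocount of 0.5 or 5, a filter over all 17 libraries, a minimum value of 50, TMM rescaling and quantile normalization. Other settings gave, as higher and lower, 295 and 102 with no filter, 351 and 65 with upper-quartile rescaling, 391 and 95 with edgeR, 807 and 438 with DESeq2, 2949 and 3047 with array weights, 8 and 1 with the 6 libraries only, 88 and 2 with the 9 microglia libraries, 45 and 2 with S25 and S27 averaged to 1, 1 and 1 without S25 and S27, 512 and 370 with GC-corrected values and 1811 and 2108 with GC-corrected values without S26. Leaving out 1 library gave 42 to 2122 higher and 1 to 2408 lower. The counts were 46 and 3 without S25, 2122 and 2408 without S26, 42 and 1 without S27, 114 and 2 without normal S20, 130 and 13 without S21 and 129 and 14 without S36. The cause of these shifts was not tested.

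Of the 87 called genes that the naming rules selected, 86 kept the call with a pseudocount of 0.5, 85 with TMM, 79 with upper-quartile rescaling, 70 with quantile normalization, 77 with edgeR, 87 with DESeq2, 87 without S26, 23 without S25 and 21 without S27. Values that turned were Clec7a, at -0.07 (adjusted p = 1) without S25 and S27, and, with GC-corrected values without S26, P2ry12 at -0.44 (adjusted p = 0.00882) and Timp2 at 0.26 (adjusted p = 0.0397). The cause was not tested. No scaling moved the median of all genes by over 0.1. No paired analysis was possible because the columns of the knockout and wild-type 5xFAD libraries carry no replicate number. Depth limits the statements on genes with few reads, such as Baiap2l2 and Mamdc2 in normal libraries.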

Other observations

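Further genes outside the lists, chosen after their values were seen, were called higher with S26 also above every normal library. Anxa2 (annexin A2) was 696, 483 and 679 in normal, 2961, 1571 and 3137 in knockout and 969, 936 and 1238 in wild-type 5xFAD libraries (log2 difference from normal 2.00, adjusted p = 0.000522). Hdc, which makes histamine, was 85.4, 45.7 and 86.1 in normal, 502, 384 and 437 in knockout and 56, 61.8 and 65.8 in wild-type 5xFAD libraries. Pglyrp1, a granule protein that binds peptidoglycan, was 237, 143 and 329.6 in normal, 1214, 677 and 1419 in knockout and 77.6, 70.8 and 60.6 in wild-type 5xFAD libraries. Upp1 and Asprv1 were near 0 outside the knockout: Upp1, uridine phosphorylase, was 1, 0.95 and 3.4 in normal, 36, 36.1 and 45.5 in knockout and 0.98, 3.01 and 4.56 in wild-type 5xFAD libraries, and Asprv1, an aspartic protease, 5.02, 0 and 5.66 in normal, 92.5, 64.6 and 95.4 in knockout and 6.88, 5.27 and 11.7 in wild-type 5xFAD libraries. Both Upp1 and Asprv1 passed the filter on low values only through the knockout libraries. A difference from normal was thus built into their selection, and their calls support nothing. Ifitm1 was highest in S26, at 20.1, 20.9 and 12.5 in normal, 73, 235 and 102 in knockout and 21.6, 18.1 and 16.3 in wild-type 5xFAD libraries.

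Other such genes were also far above normal in wild-type 5xFAD. Mmp12, macrophage elastase, was 40.2, 40.9 and 29.4 in normal, 549, 97.4 and 548 in knockout and 363, 296 and 419 in wild-type 5xFAD libraries. Trpm1, a cation channel gene, was 1, 2.85 and 0 in normal, 79.2, 15.3 and 47.7 in knockout and 160.2, 204 and 195 in wild-type 5xFAD libraries. In both, S26 was above every normal library and below every other 5xFAD library. The transcription factor gene Six5 was called lower in the knockout, at 29.1, 42.8 and 28.3 in normal, 6.17, 3.28 and 4.34 in knockout and 10.8, 8.29 and 7.81 in wild-type 5xFAD libraries, with S26 the lowest library. Among the libraries compared, Trpm1 passed the filter only through the knockout libraries and Six5 only through the normal ones. Their differences from normal were thus built into their selection, and their calls support nothing.

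S26 departed from S25 and S27 in both directions. Hspa1b and Hspa1a, inducible heat shock proteins of the Hsp70 family, were among the genes higher in S26. Hspa1b was 1547, 1772 and 2681 in normal and 204, 3822 and 228 in knockout libraries. Hspa1a was 1691, 1834 and 2729 in normal and 370.1, 4324 and 328 in knockout libraries. Ddit4, a stress-induced inhibitor of mTOR, was 538, 175 and 1308 in normal and 55.5, 621 and 46.6 in knockout libraries, and Tsc22d3 (GILZ), a glucocorticoid target, 7770.3, 4773 and 11657 in normal and 2542, 9513 and 2565 in knockout libraries. For these genes S25 and S27 lay below every normal library and S26 within or above them. In the other direction, Jchain, the joining chain of secreted antibodies, was 0, 168 and 0 in normal and 1603, 8.76 and 1742 in knockout libraries, and Prg2, a granule protein of eosinophils, 500.4, 17.1 and 483 in normal and 2303, 315 and 2330.5 in knockout libraries. Both were high in S25 and S27 and not in S26. Ptn (pleiotrophin) was 134, 233 and 288 in normal, 2117, 313 and 2039 in knockout and 1472, 1327 and 260.5 in wild-type 5xFAD libraries, and Prss34, a mast cell and basophil protease, 9.04, 294 and 898 in normal, 2889, 462 and 2799.8 in knockout and 184, 176 and 423 in wild-type 5xFAD libraries. All 17 tested T and NK cell markers lay above every normal library in S26, 7 did in S25 and 5 in S27, where 25.8%, 42.1% and 41.9% of all tested genes did. These are descriptions of 1 library, with no test.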
